A study of Daphnia magna with 12 samples.

Results

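A set of 116 microarray probes, 2.69% of the 4318 probes measured in whole Daphnia magna, was far lower in 2 pools of zinc-exposed animals than in 4 other zinc-exposed pools. Members were the probes whose mean log2 ratio on ZnCl2 replicate 2 and ZnO replicate 4 lay at least 1.5 below their mean on ZnCl2 replicates 1 and 4 and ZnO replicates 2 and 3, with both low arrays under the lowest of those 4. The members were chosen by the ratios of these 6 arrays, so those values are given as a description and support nothing. ZnO replicate 1, ZnCl2 replicate 3 and the 4 blanks do not enter the rule, which was itself proposed with results of all 12 arrays in view. The difference alone was met by 122 probes, of which 6 did not meet the order condition, and the mirrored rule (higher on the same 2 arrays by as much) was met by 4 probes.

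Daphnia magna is a freshwater crustacean used in toxicity testing. The exposed groups received ZnO nanoparticles or dissolved ZnCl2 for 96 h at an EC10 for immobilisation, the blanks received no zinc spike, medium and spike were renewed after 48 h, and the age given at sampling is 96 h. All groups, the blanks included, received the same medium and algal food. Each of the 12 arrays compared RNA of 1 pool of 40 whole animals with a reference mixed equally from the 3 groups, 4 pools a group, of which 2 carried the pool's RNA in Cy3 and 2 in Cy5.

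Zinc is an essential metal that becomes toxic in excess, and ZnO particles release zinc ions as they dissolve in water, while the chloride salt dissolves at once. Daphnids carry gut, ovary, muscle, cuticle-forming epidermis and, in adults, brood in 1 small body, moult repeatedly and reproduce in cycles tied to the moult, so that RNA of a whole animal mixes all of these tissues and stages. In such a whole-body pool, fewer cells of a type and less RNA per cell cannot be told apart. The probes carry array identifiers that none of the sources used here pairs with a gene (0 of 4318 were found among the identifiers of 28335 reference genes), so their roles are not given, and no probe sequence was used here.

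A ratio of 0 means a level equal to that of the reference, and a ratio of -1 a 2-fold lower level. The table does not state direction or log base. The reference being an equal mixture, the level relative to it should average near 1 over the 12 arrays. Over the 421 probes outside the set with the largest 10% of SDs over the arrays, which were taken whatever their sign, this average had a median of 1.05 with the ratios read as log2 of pool over reference. It was 1.27 in the opposite direction, 1.20 for the natural log and 3.05 for log10. Over all probes the medians were closer, at 1.01, 1.03, 1.03 and 1.17. Direction and base were inferred from these values. The column medians over all probes ranged from -0.06 to 0.02, and how the arrays were centred is unknown. The lowest correlation between arrays of the same dye orientation was -0.32 (ZnO replicate 1 and blank replicate 2). That direction was kept, since the dye of every channel is stated and pools of opposite condition may lie on opposite sides of a mixture.

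On the arrays that defined them, the members were lowest in the salt pool. The median ratio was -2.61 on ZnCl2 replicate 2 (range -5.72 to -0.70) and -2.21 on ZnO replicate 4 (-3.59 to -1.22). ZnCl2 replicate 2 lay below ZnO replicate 4 for 95 of the 116. On the 4 higher zinc arrays the medians were -0.02 (ZnCl2 replicate 1), 0.29 (ZnCl2 replicate 4), -0.48 (ZnO replicate 2) and 0.11 (ZnO replicate 3). The difference of the rule had a median of -2.38, a 5.21-fold lower level, and was -2 or lower for 81 members and -3 or lower for 38.

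The largest difference was that of DM06747P2, -4.18 or an 18.2-fold lower level. Its ratios were -5.36 on ZnCl2 replicate 2 and -2.84 on ZnO replicate 4, against -0.21 and 0.67 on ZnCl2 replicates 1 and 4 and -0.59 and 0.45 on ZnO replicates 2 and 3. On the arrays not used by the rule it read -2.93 on ZnO replicate 1, 0.02 on ZnCl2 replicate 3 and -0.11, -0.04, 1.33 and 1.56 on blank replicates 1 to 4. ZnO replicate 1 was thus as low as ZnO replicate 4 there, and ZnCl2 replicate 3 lay within the range of the blanks.

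DM08074P4 differed by -3.90, with ratios of -4.37 and -3.59 on the low pair and -0.55 to 0.71 on the 4 higher arrays. It read -3.63 on ZnO replicate 1, -0.09 on ZnCl2 replicate 3 and 0.40, -0.23, 0.74 and 1.62 on the blanks. DM07821P2 (difference -4.07), DM02749P1 (-3.86), DM02810P1 (-3.82), DM06973P1 (-3.78), DM02191P2 (-3.77) and DM06074P3 (-3.73) had the same outline, with -3.23 to -2.44 on ZnO replicate 1 and 1.33 to 1.61 on blank replicate 4.

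DM07809P1 and DM12750P1, also among the 10 largest differences, had another outline. DM07809P1 held the lowest ratio of any member, -5.72 on ZnCl2 replicate 2, but read -2.002 on ZnO replicate 4 and only -1.21 on ZnO replicate 1, and its blanks lay close together at 0.32, 0.21, 0.51 and 0.85. DM12750P1 read -4.96 and -2.43 on the low pair, -1.21 on ZnO replicate 1 and 0.07, 0.49, 0.62 and 0.56 in the blanks.

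ZnO replicate 1 was the third low pool. Its ratios over the members had a median of -1.68 (range -5.03 to 0.28), and it lay below all 4 blanks for 112 of the 116, against 26.4% of all probes. Relative to the blank mean the median was -2.30, a 4.93-fold lower level, against 0.02 over all probes. The gap was at least 1 for 97 members (6.55% of all probes) and at least 2 for 67 (2.45% of all probes). Over all probes the SD of the ratios was 0.55 on ZnO replicate 1, 0.62 on ZnCl2 replicate 2 and 0.55 on ZnO replicate 4. That SD was 0.32 to 0.35 on the other zinc arrays and 0.38 to 0.50 on the blanks. What the wider spread of the low arrays adds to the members' low ratios was not tested. ZnO replicate 1 also lay below all of the 4 higher zinc arrays for 90 members, against 23.0% of all probes. It lay below at least 1 array of the low pair for 32. The rule used the higher arrays and the low pair, so nothing is read from the counts against them.

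ZnCl2 replicate 3, the other zinc pool not used, was lower than the blanks by less. Its median ratio was -0.30 (range -0.97 to 0.68), and it lay below all 4 blanks for 97 members, against 24.3% of all probes. The median gap to the blank mean was -0.91, a 1.87-fold lower level, and reached 1 for 45 members (3.03% of all probes) and 2 for 0. For 80 members it lay within the range of the 4 higher zinc arrays and for the other 36 below them. The rule used those 4 arrays and the shares over all probes were not taken, so nothing is read from this. ZnO replicate 1 and ZnCl2 replicate 3 were both below all blanks for 96 members, against 11.5% of all probes.

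The mean of the 4 higher zinc pools was below the blank mean for 113 of the 116, against 48.4% of all probes. The median gap was -0.62, against 0.01 over all probes. All 4 lay below all 4 blanks for only 22 members, against 3.33% of all probes. Array by array, ZnO replicate 2 was below all blanks for 105 members (23.4% of all probes), ZnCl2 replicate 1 for 78 (21.7%), ZnO replicate 3 for 65 (24.3%) and ZnCl2 replicate 4 for 44 (20.3%). The low pair itself counted 115 (ZnCl2 replicate 2, 24.7% of all probes) and 116 (ZnO replicate 4, 30.7%). These 6 arrays were used by the rule, which did not use the blanks, and nothing is read from their counts.

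ZnO replicate 1 and ZnCl2 replicate 3, taken as 1 zinc group, were tested against the 4 blanks in limma with a dye term, on these 6 arrays alone (3 residual degrees of freedom). Lower levels passed the threshold (Benjamini-Hochberg adjusted p under 0.05 over all 4318 probes) for 86 of the 116 members, against 5.28% of all probes, and higher levels for 0. The 86 are 74.1% of the members and 37.7% of the 228 probes called lower. At an unadjusted p under 0.05, 108 members were lower (11.2% of all probes) and 0 were higher. The median change over the members was -1.68 (range -3.55 to 0.30), against -0.00 over all probes, and 114 of 116 were negative (50.6% of all probes).

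The count of 86 rested on the dye term and on single arrays, while the median change moved less. It was 4 with no dye term (0.417% of all probes lower) and 0 with the replicate number as a block (0% of all probes, median change -1.56). With the spread taken from all 12 arrays it was 0 (1.41% of all probes lower). That spread includes the 6 arrays used by the rule, which chose probes that differ among them, so nothing is read from this 0. Zinc and blank arrays held both dyes equally, so the median change of -1.68 could not move in that fit or with no dye term. The count was 17 without blank replicate 4 (1.04% of all probes lower) and 19 without blank replicate 1 (0.834%), with median changes of -1.62 and -1.59. In these refits fewer of all probes were called lower as well, against 5.28% in the main fit. Leaving out a zinc array leaves 1, and the median change was then -1.28 without ZnO replicate 1 and -1.96 without ZnCl2 replicate 3.

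The smallest p-values belonged to members whose blanks fell into the 2 dyes. DM06472P1 read 0.23 and 0.36 on the Cy3 blanks 1 and 2 and 1.24 and 1.25 on the Cy5 blanks 3 and 4, with -1.49 on ZnO replicate 1 (Cy3) and -0.47 on ZnCl2 replicate 3 (Cy5). The zinc and blank arrays did not overlap, and the change was -1.74 (95% interval -1.97 to -1.52, limma adjusted p = 0.00187). DM12101P3 read 0.10, 0.03, 0.97 and 0.97 in the blanks, -1.17 on ZnO replicate 1 and -0.27 on ZnCl2 replicate 3, a change of -1.24 (interval -1.45 to -1.03, limma adjusted p = 0.00309). DM07658P2, DM08206P2, DM08322P1 and DM10599P1 changed by -1.81, -1.70, -1.62 and -1.79. The call of all 6 ended with no dye term and with the block, under which 0% of all probes were called. It also ended with the 12-array spread, which includes the arrays used by the rule, so nothing is read from that.

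The members also differed by dye. In the blanks the Cy5 arrays exceeded the Cy3 arrays by a median of 0.60 over the members, against -0.03 over all probes, and did so for 95 members (47.2% of all probes). The gap was 0.01 in ZnO (positive for 60 members, 46.9% of all probes) and 1.39 in ZnCl2 (112 members, 46.6% of all probes). The rule had fixed a Cy5 array of ZnO and a Cy3 array of ZnCl2 as low. With 2 arrays a dye in each group, dye and pool cannot be told apart within a group. Zinc and blank arrays of the 6-array fit held both dyes equally, so its median change of -1.68 is the same with or without the dye term. Set against blanks of its own dye, ZnO replicate 1 lay below both Cy3 blanks for 116 members (37.5% of all probes; median gap -1.96) and ZnCl2 replicate 3 below both Cy5 blanks for 110 (37.6% of all probes; median gap -1.28).

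The blanks were not alike on these probes. Their medians over the members were 0.38, 0.23, 0.62 and 1.13 on replicates 1 to 4, and blank replicate 4 was the highest blank for 88 members, against 25.0% of all probes. Blank replicate 4 exceeded blank replicate 3, and that array both others, for 71 members (16.6% of all probes). The SD over the 4 blanks had a median of 0.47 among the members and 0.20 over all probes, and 99 members exceeded the latter. It was 0.26 and 0.13 with the mean of each dye removed, and 0.31 among the members without blank replicate 4.

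Some members hardly varied without zinc. DM02419P1 read 0.64, 0.53, 0.56 and 0.63 in the blanks (0.59 ± 0.05, SD, n = 4), then -0.78 on ZnO replicate 1 and -0.13 on ZnCl2 replicate 3. DM07545P1 (SD 0.06), DM07141P1 (0.08) and DM02214P4 (0.09) were as even, and both unused zinc arrays lay below their blanks. At the other end, DM06521P1 read 1.21, -1.01, -0.31 and 2.37 in the blanks (SD 1.52), and its ZnCl2 replicate 3 at -0.39 lay within that range while ZnO replicate 1 at -1.87 lay below it. DM08108P3 (SD 0.90), DM06747P2 (0.88) and DM06934P4 (0.86) were the next most variable.

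The level on ZnO replicate 1 went inversely with the height of blank replicate 4. Across the 116 members, which share arrays and are not independent, the ratios of these arrays correlated at -0.83 (Pearson) and -0.89 (Spearman), against -0.44 and -0.56 across all 4318 probes. The correlation of ZnO replicate 1 across members was -0.53 with blank replicate 3, 0.41 with blank replicate 2 and 0.33 with blank replicate 1 (Pearson), against -0.13, -0.32 and 0.19 across all probes. Both arrays of the strongest pair were hybridised against the same reference mixture, and what this adds to the correlation was not tested. Of the 79 members at -1 or lower on ZnO replicate 1, 78 were above 0 on blank replicate 4, as were 33 of the other 37 members. Of the 137 other probes at -1 or lower on ZnO replicate 1, 43 were. Over all probes, 55.0% were below 0 on blank replicate 4.

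Split at a ratio of -1 on ZnO replicate 1, the members gave a larger and a smaller set, described here without a test. The 79 at or below -1 had medians of -3.09 on ZnCl2 replicate 2, -2.31 on ZnO replicate 4 and -2.10 on ZnO replicate 1, and 0.34, 0.16, 0.74 and 1.30 on the blanks. For 74 of them blank replicate 4 was the highest blank. The other 37 had medians of -1.90, -1.77 and -0.54 on the same zinc arrays and 0.56, 0.40, 0.35 and 0.48 on the blanks, with blank replicate 4 the highest blank for 14. The blank SD had a median of 0.55 among the 79 and 0.25 among the 37. Not every mild member had even blanks. The highest 4 on ZnO replicate 1 relative to the blank mean were DM01897P4, DM08115P3, DM06561P1 and DM08860P1. Their blank SDs were 0.47, 0.80, 0.53 and 0.18.

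The lowest members on ZnO replicate 1 were DM06709P1, DM02038P1, DM08074P4 and DM13223P1, at -5.75, -4.32, -4.26 and -4.26 relative to the blank mean. DM06709P1 read -5.03 on ZnO replicate 1 and -5.45 on ZnCl2 replicate 2, with -2.66 on ZnO replicate 4. It was also low on ZnO replicate 3 (-1.42) and on ZnCl2 replicate 1 (-0.89), and read -0.64 on ZnCl2 replicate 3 and 0.61, 0.13, 0.33 and 1.79 in the blanks. Its change in the 6-array fit was the most negative of the members at -3.55, and the wide interval (-5.83 to -1.27) did not pass the threshold (limma adjusted p = 0.0732). DM13223P1 had the largest gap on ZnCl2 replicate 3 as well, -1.66 below the blank mean.

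A few members were not low on the arrays that the rule did not use. DM01897P4 read 0.28 on ZnO replicate 1 and 0.08 on ZnCl2 replicate 3, within its blanks of 0.79, 0.31, -0.34 and 0.15. DM08115P3 (0.21 and 0.03) and DM06561P1 (0.21 and 0.05) likewise lay within their blanks, all with blank replicate 1 highest and blank replicate 3 lowest. Their changes in the 6-array fit were -0.05, -0.09 and -0.31 (limma adjusted p 0.923, 0.918 and 0.502, intervals -0.61 to 0.51, -1.06 to 0.89 and -0.93 to 0.30).

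DM06379P1 ran against the set. Its blanks read 0.28, -0.58, -0.997 and -0.84, and ZnCl2 replicates 1, 3 and 4 at 0.91, 0.68 and 1.40 were above all of them. Only ZnO replicates 1 and 4 (-1.14 and -1.91) lay below all its blanks, and ZnCl2 replicate 2 at -0.70 did not. DM08860P1 had ZnCl2 replicate 3 at 0.42, above its blanks of 0.09, -0.28, 0.10 and -0.05. These are the 2 members whose change in the 6-array fit was positive (0.30 and 0.08), and neither passed the threshold (limma adjusted p 0.823 and 0.847).

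DM10606P4, DM08840P1 and DM11918P3, chosen for description after their values were seen, had nearly the same profile as each other. DM02021P1 also correlated above 0.9 with all 3 over the 6 arrays not used by the rule, and DM03237P1 with DM10606P4. DM10606P4 read 0.80 and 0.84 on the Cy3 blanks and -0.05 and 0.02 on the Cy5 blanks, the reverse of the usual order, with -0.11 on ZnO replicate 1 and -0.93 on ZnCl2 replicate 3. All 3 were lowest on ZnO replicate 4, at -2.26, -2.62 and -2.36. Over the 6 arrays not used by the rule, they differed from each other by at most 0.23 on any array (pairwise correlations 0.990 to 0.994). Their identifiers do not tell whether they measure related transcripts.

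With these included, most members varied together on arrays the rule had not used. Over the 4 blanks, ZnO replicate 1 and ZnCl2 replicate 3, the correlation between pairs of members had a median of 0.93, against -0.00 between pairs of all probes, and exceeded 0.8 for 71.8% of member pairs and 6.44% of all pairs. The points are arrays that share 1 reference. Without ZnO replicate 1 (5 arrays, chosen after seeing the data) the medians were 0.81 and 0.00. Against the mean of the other members, 94 members correlated above 0.9 and 10 below 0.5, the latter led by DM01897P4 (-0.12), DM08115P3 (-0.09) and DM06379P1 (0.07). Among the probes outside the set, 130 (3.09%) correlated above 0.9 with the member mean over these 6 arrays.

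Compared as the study's groups, with 4 arrays each, the members' spread within the zinc groups was large. The member mean was 0.56 ± 0.34 in the blanks, -1.06 ± 1.03 in ZnO and -0.75 ± 1.51 in ZnCl2 (SD over arrays, n = 4), with the highest array of either zinc group (0.06 for ZnO, 0.27 for ZnCl2) near the lowest blank (0.25). In the fit of all 12 arrays with a dye term, the residual SD had a median of 1.06 among the members and 0.17 over all probes, and 96 members were in the top 5% of it. The rule chose probes that differ within the zinc groups, so nothing is read from this spread.

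For ZnO against blank, 2 members passed the threshold in limma, both lower, against 3.13% of all probes. These were DM10599P1 (change -1.57, interval -2.50 to -0.64, limma adjusted p = 0.045) and DM02071P1 (-1.97, -3.16 to -0.77, limma adjusted p = 0.0489). DM10599P1 read 0.33, 0.73, 1.21 and 1.26 in the blanks and -1.12, -0.40, 0.31 and -1.52 in ZnO, so that only its highest ZnO array came near a blank. The count was 31 without ZnCl2 replicate 2 (4.86% of all probes lower), 13 without ZnO replicate 2 (2.96%) and 7 without ZnO replicate 3 (3.43%). Leaving out a blank (each in turn), ZnO replicate 1, ZnO replicate 4, ZnCl2 replicate 3 or ZnCl2 replicate 4 gave 0 (1.27% to 2.78% of all probes). At an unadjusted p under 0.05 there were 66 (12.2% of all probes). The median change was -1.63, and all 116 were negative (50.6% of all probes). Without ZnO replicate 4, which the rule had fixed as low, these were -1.05 and 114.

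For ZnCl2 against blank, 0 members passed in limma, against 2.34% of all probes, with 18 lower and 0 higher at an unadjusted p under 0.05 (9.22% of all probes lower). The median change was -1.33, and 114 of 116 were negative (49.9% of all probes). Without ZnCl2 replicate 2, which the rule had fixed as low, these were -0.66 and 111. DM10599P1 came nearest, at -1.44 (interval -2.37 to -0.51, limma adjusted p = 0.0611). The count was 4 without ZnO replicate 4 (2.8% of all probes lower) and 1 each without ZnO replicate 3 (2.29%) or ZnCl2 replicate 1 (2.01%). Both comparisons share the 4 blanks, and 6 of their 8 zinc arrays were used by the rule, so nothing is read from these counts.

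For ZnO against ZnCl2, 0 members passed in limma (0.0% of all probes), with 1 lower and 0 higher at an unadjusted p under 0.05 (3.36% of all probes lower). The median difference was -0.31, with a median half-width of the 95% interval of 1.48, against 0.26 over all probes. As 6 of the 8 zinc arrays were used by the rule, nothing is read from this width or from the counts. The member nearest to a difference was DM06379P1 at -1.35 (interval -2.55 to -0.15, limma adjusted p = 0.841). With Cy3 arrays alone (which include ZnCl2 replicate 2) the median difference was 0.36, and with Cy5 arrays alone (which include ZnO replicate 4) it was -1.04. Leaving out single arrays gave -1.01 without ZnCl2 replicate 2, -0.63 and -0.62 without ZnO replicates 2 and 3, -0.22 without ZnO replicate 1, -0.27 and -0.06 without ZnCl2 replicates 3 and 4, 0.08 without ZnCl2 replicate 1 and 0.25 without ZnO replicate 4.

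At the edge of the rule, DM10599P1 (-1.507), DM08421P2 (-1.505) and DM07141P1 (-1.502) were just inside, and DM00374P1 (-1.482), DM07220P3 (-1.459) and DM02440P1 (-1.451) just outside. DM00374P1 looked like a member elsewhere, with -1.48 on ZnO replicate 1 and 1.26 on blank replicate 4. DM07220P3 did not, with 0.44 and 0.17 on those arrays, and it was low on ZnO replicate 4 (-2.71) but only slightly so on ZnCl2 replicate 2 (-0.35).

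The members shared little in their identifiers. Each probe of the table has its own number before the letter P, so no member shares one with another probe. The digit after the P was 1 for 55 members (47.4%, against 42.5% of all probes), 2 for 29 (25.0%, 24.3%), 3 for 24 (20.7%, 25.9%) and 4 for 8 (6.90%, 7.32%), and no source used here says what it stands for. Values shared exactly with another probe, of which each array held 334 to 1370, were rare among the members, at 0 to 4 of 116 on each array.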

How the data were processed

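The authors' deposited table holds ratios, read here as log2 of pool over zinc reference (an inference from the values), for 4318 probes and 12 two-channel Agilent arrays (100 ng RNA labelled per sample, per the labels' protocols), with no missing value. limma is named without a version per the submitters' processing notes. Background correction, normalization within arrays and probe selection: not given in the sources used here. Spot intensities were not analysed, so signal over background is unknown, and precision is limited by the number of arrays. Those values were used as deposited.

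Members and probe sets were chosen with earlier results of these data known. Tests used limma 3.58.1 in R 4.3.3 (lmFit, eBayes), with a dye term, two-sided p-values and Benjamini-Hochberg adjustment over all 4318 probes. The fits were also run on simulated data with independent noise for each probe. The members varied together, so nothing is read from that run. Other values came from Python 3.11.15. No label says whether the pools of a group derive from separate cultures. The p-values therefore reflect pool-to-pool spread only, possibly technical. Residual correlations of same-numbered arrays ran from -0.62 to 0.45, with 1 of 12 above 0.1, so the main fits took no pairing. Named probes are the 10 with the largest difference, the 3 on either side of the threshold, the 4 highest and 4 lowest for ZnO replicate 1 and for ZnCl2 replicate 3 relative to the blank mean and for the blank SD, and up to 6 with the smallest p among those called in each comparison, with DM10606P4, DM08840P1, DM11918P3, DM02021P1, DM03237P1 and DM08393P3 added after their values were seen.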

Additional observations from a re-analysis of the deposited data

Results flagged for a closer look

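Among 135 groups of 4 values of the named probes and the member mean, 21 had an extreme array whose gap to the next exceeded 0.829 of the group's range, where chance gives about 1 in 20 (6.75). Of these, 18 were ZnCl2 replicate 2, which the rule had fixed as low, and the probes share that array. Its ratio was -5.36 for DM06747P2, -5.13 for DM07821P2, -4.37 for DM08074P4, -5.72 for DM07809P1, -4.83 for DM02749P1, -4.96 for DM12750P1, -4.89 for DM06973P1, -5.18 for DM02191P2 and -4.89 for DM06074P3. It was -5.24 for DM07658P2, -3.64 for DM08206P2, -4.29 for DM08393P3 and -2.96 for DM02214P4, and -1.32 for DM08860P1, -1.69 for DM06561P1, -1.56 for DM01897P4, -1.92 for DM08835P1 and -1.84 for DM08081P2. ZnO replicate 4, also fixed as low, stood apart for DM08840P1 (-2.62) and DM11918P3 (-2.36). On DM08421P2, ZnO replicate 3 stood above the other ZnO arrays, at 0.76 against -1.34 to -0.997. No group of blanks was picked out among those examined.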

How the results depend on the processing

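The rule gave 116 members as deposited, 157 at a difference of -1, 81 at -2, 112 with arrays centred on their medians, 116 with the dye term removed and 33 after quantile normalization, all 33 among the 116. The count of members lower on the 2 unused zinc arrays was 86 (5.28% of all probes). It was 4 with no dye term (0.417%), 0 with the replicate block (0%) and 17 to 90 without single blanks (0.834% to 4.26%). It was 0 with the 12-array spread (1.41%), which includes the arrays used by the rule. Higher counts were also 0 in these refits. Without ZnO replicate 1 or ZnCl2 replicate 3, which leaves 1 zinc array, the median change was -1.28 or -1.96, against -1.68. The count was 93 with centring (5.65%), 92 after quantile normalization (5.09%), 106 at an adjusted p under 0.1 (7.57%) and 85 at 1.5-fold or more (4.24%). For ZnO against blank (2) it was 0 with no dye term (1.07% of all probes) and 0 with the replicate block (2.18%). It was 0 in the Cy3 (0.139%) and 0 in the Cy5 arrays alone (0.0695%). It was 30 after quantile normalization (3.47%), 23 at an adjusted p under 0.1 (6.9%) and 0 to 31 without single arrays (1.27% to 4.86%). For ZnCl2 against blank (0) it was 5 after quantile normalization (2.83% of all probes) and 2 at an adjusted p under 0.1 (4.47%). It was 0 with the replicate block (1.57%) and 0 to 4 without single arrays (1.18% to 2.8%). Between the zinc forms the count stayed 0 in all 20 alternatives. The blanks' median SD of 0.47 was 0.26 with the dye means removed and 0.31 to 0.53 without single blanks. ZnO replicate 1 lay below the blanks for 111 to 114 members and ZnCl2 replicate 3 for 97 to 110 in the 6 alternatives of each. The 4 that leave out a blank were added after seeing the data and could only keep or raise the count. Over 118 refits of 8 probe results, 71 kept their call, 47 lost it and 0 changed sign. Those at an adjusted p under 0.1 or at 1.5-fold or more could not lose a call, and some others leave 1 zinc array. The cause of these moves was not tested, except that leaving out arrays or dyes leaves fewer arrays. Filters on dim probes could not be run without intensities.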
